A study of Mus musculus with 32 samples.

Results

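Vomeronasal receptor genes were followed on arrays of sorted olfactory mucosa cells. The members were the genes whose probe sets carried exactly 1 symbol, starting with Vmn1r or Vmn2r, and a gene with several such probe sets was read from the one with the highest mean signal. This gave 167 genes of 19938 with a symbol of their own, 118 of the V1R family and 49 of the V2R family. RefSeq lists 164 of them as protein coding and 3 as pseudogenes. The 32 arrays held cells of adult olfactory epithelium from S100a5-tauGFP mice, and a cell sorter separated those with GFP from those without. All mice carried the reporter, whose GFP follows S100a5, a gene that olfactory sensory neurons switch on with activity. Mice were kept singly for 26 h in clean air and then received vehicle or an odorant, eugenol (clove) or muscone (musk), for 14 h in pulses of 10 s every 5 min. The 8 groups of 4 arrays were vehicle or eugenol in the eugenol experiments and vehicle or muscone in the muscone experiments, each split into GFP positive cells and GFP negative ones. Each odorant had 4 experiments, numbered here 1 to 4, and each experiment gave 1 array of each kind. The labels do not say whether arrays came from separate animals or from pools, so p-values measure only the spread between arrays within experiments.

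Vomeronasal receptors are G protein-coupled receptors that detect pheromones and other social cues. They are made mainly by sensory neurons of the vomeronasal organ, a blind pouch at the base of the nasal septum that is separate from the main olfactory epithelium. V1R receptors work with the G protein subunit Gnai2 in apical vomeronasal neurons and bind mostly small molecules, while V2R receptors have a large extracellular domain, work with Gnao1 in basal neurons and respond to peptides and proteins. Most vomeronasal neurons choose a single V1R or V2R gene, and basal neurons add a broadly expressed V2R such as Vmn2r1. Main olfactory neurons choose an odorant receptor instead and signal through Gnal, Adcy3 and the cyclic nucleotide-gated channel.

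The genes sit among their own kind in the genome. In the RefSeq gene order of assembly GRCm38.p6, 89 of the 167 members had a vomeronasal receptor gene or pseudogene on both sides, 53 on 1 side and 25 on neither side. Close copies limit what an array can tell apart. Besides the 175 probe sets with a single vomeronasal symbol, 66 carried several symbols, and these named 138 vomeronasal receptor genes, 81 of which had no probe set of their own and are not among the members. Of the members, 57 were also named in such shared probe sets, so cross-hybridisation among copies could enter their values. Genes described below are among these 57, including Vmn2r26, Vmn2r1, Vmn2r74 and Vmn1r48. The median signal of the 57 was 4.46, beside 4.65 for the other 110 members.

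RefSeq promoter sequences of assembly GRCm38.p6 were at hand for 147 of the 167 members, as the 250 bases before the gene's start. They are shown for 3 members because the results turn on these genes: the brightest member, the member with the largest rise in GFP positive cells under vehicle and the only member called lower there. They run 5′ to 3′ on the strand of the gene, and capitals mark TATAAA on either strand.
Vmn2r26, chr6:124024508-124024757, plus strand: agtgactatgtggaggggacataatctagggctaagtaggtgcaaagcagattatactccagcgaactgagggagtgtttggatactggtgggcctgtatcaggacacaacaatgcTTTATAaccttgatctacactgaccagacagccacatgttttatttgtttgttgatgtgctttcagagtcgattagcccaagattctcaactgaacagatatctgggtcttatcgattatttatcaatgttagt
Vmn2r1, chr3:64081392-64081641, plus strand: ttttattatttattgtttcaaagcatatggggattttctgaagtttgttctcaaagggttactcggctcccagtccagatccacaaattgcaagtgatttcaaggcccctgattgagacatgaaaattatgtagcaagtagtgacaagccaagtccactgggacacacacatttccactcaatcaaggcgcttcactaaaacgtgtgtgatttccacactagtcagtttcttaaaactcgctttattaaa
Vmn2r74, chr7:85961483-85961732, minus strand: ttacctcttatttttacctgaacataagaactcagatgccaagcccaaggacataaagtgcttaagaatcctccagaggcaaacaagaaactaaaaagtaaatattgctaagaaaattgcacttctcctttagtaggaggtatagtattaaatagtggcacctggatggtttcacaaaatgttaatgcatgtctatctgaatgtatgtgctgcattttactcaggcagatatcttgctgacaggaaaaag
The Vmn2r26 window holds TATAAA on the opposite strand, and the other windows do not hold it.

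The members' promoters were poor in GC, as those of odorant receptors were. Their median GC content was 36.4%, with 34% for V1R and 39.2% for V2R promoters, beside 34% for 948 odorant receptor promoters and 52.4% for 32851 promoters of all genes. A median member promoter held 1 CpG, and the median of all promoters was 6. TATAAA was found on either strand in 47 of 147 member promoters, compared with 39.2% of odorant receptor promoters and 12.4% of all. TAATTA, a homeodomain-type motif, was found in 15, compared with 18.0% of odorant receptor promoters and 4.84% of all. CCCNNGGG, the core read by Olf/Ebf factors, was found in 3, or 2.04%, compared with 2.74% and 11.8%. The reference families described below, used mainly in other tissues, had 98 promoters with a median GC content of 41.6% and a median of 2 CpG. TATAAA was found in 39 of these 98, TAATTA in 10 and CCCNNGGG in 6. Their departures from all promoters had the same directions as those of the members, so these directions were not particular to receptor genes. Both strands were searched, matches of different motifs can share bases, and a match describes the window only.

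Signal levels on the deposited log2 scale put the vomeronasal receptor genes at the bottom of the arrays. The members' means over the 32 arrays ran from 3.28 for Vmn1r22 to 7.08 for Vmn2r26, with a median of 4.52. The median was 4.53 for V1R and 4.52 for V2R genes. By comparison the median was 8.42 over all genes, 8.26 over 1027 odorant receptors and 9.33 over 13 trace amine-associated receptors. None of the 167 members had a mean above that of the median gene. Signals of different probe sets also depend on the probes, so these levels place the families and do not rank single genes by transcript number.

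The dim end of each array was taken as the 95th percentile of the signal of 111 genes from 9 families used mainly in other tissues. These were hair keratin-associated (Krtap, 44 genes), placental (Prl, 19, and Psg, 12) and germline or oocyte families (Pramel, 14, Rhox, 8, Speer, 5, Ssxb, 4, Obox, 3, and Oog, 2). No member lay above the dim end on any array, while 64.8% of all genes lay above it on at least 1 and 34.1% on all 32. The cut is a strict one, running from 7.20 to 9.59 over the arrays beside array medians of all genes from 7.13 to 9.34. The members' median stayed 3.71 to 4.15 below it. It also lay below the median of the reference families themselves on all 32 arrays, with differences of -1.32 to -0.77. On any array the count of members was likewise 0 with the 99th percentile or with the median of all probe sets as the cut. On at least 1 array 53.8% and 71.4% of all genes passed these cuts, and 42.8% passed the latter on all 32. The count of members was not 0 with lower cuts. At the 90th percentile Vmn2r26 lay above on 1 of 32 arrays, and at the 95th percentile of the reference families without Krtap Vmn2r26 lay above on 11 and Vmn2r54 on 1, while 82.2% of all genes did so on at least 1.

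**Figure D1:**
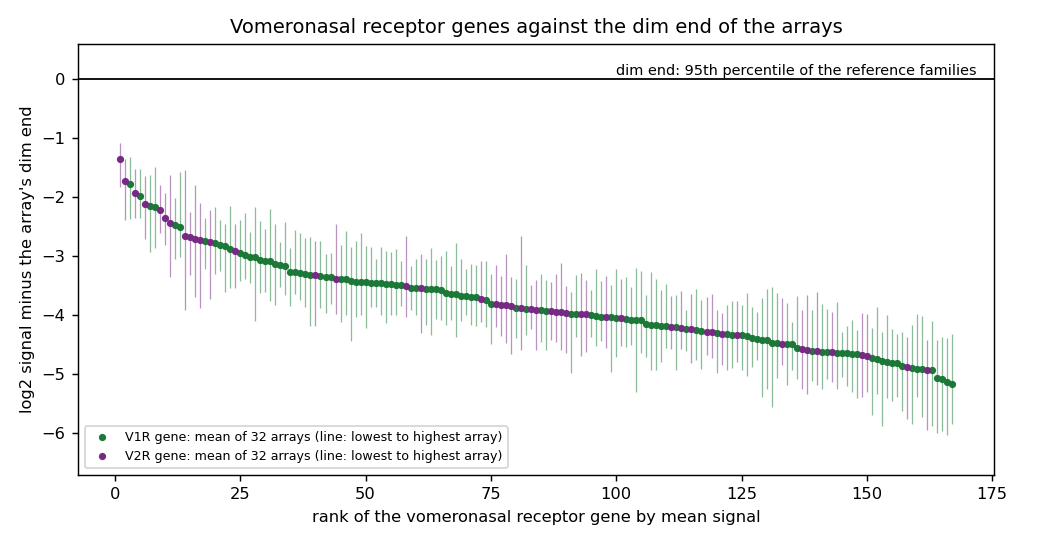
Log2 signal minus the array's dim end for the 167 vomeronasal receptor genes, ranked by mean signal, with points for the mean of 32 arrays and lines from the lowest to the highest array. The array on which the brightest gene, Vmn2r26, came nearest stands at -1.07, and the dim end is the line at 0.

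A looser cut, added after these values were seen, set the members against the median of the reference families. Then 8 members lay above on all 32 arrays, a share far below the 84.8% of all genes that did. They were 6 V2R genes, Vmn2r26, Vmn2r54, Vmn2r14, Vmn2r-ps104, Vmn2r9 and Vmn2r118, and 2 V1R genes, Vmn1r86 and Vmn1r193, and they are named here because their values were seen to pass. Their means ran from 6.09 for Vmn2r118 to 7.08 for Vmn2r26. Counted within groups, 10 to 19 members lay above on all 4 arrays in the groups of the eugenol experiments and 11 in each group of the muscone experiments. At least 84.8% of all genes did so in every group, since that share lay above on all 32.

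Vmn2r26, formerly V2r1b and known as a receptor for peptides, was the brightest member. In GFP negative vehicle cells its signal was 7.66, 8.17, 6.52 and 7.43 in eugenol experiments 1 to 4 and 7.44, 6.49, 5.56 and 6.88 in muscone experiments 1 to 4. In GFP positive vehicle cells it was 7.62, 8.22, 6.66 and 7.41, and then 7.63, 6.90, 5.89 and 7.41. The fractions overlapped fully, and eugenol 2 was highest and muscone 3 lowest in both. The next members below the dim end were Vmn2r54 with a mean of 6.71 and Vmn1r86 with 6.66, which averaged -1.73 and -1.78 relative to it.

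The level of the whole family moved with the experiment. The members' median was 5.11 to 5.72 on the 4 arrays of eugenol 2, the highest, and 3.49 to 3.59 on those of muscone 3, the lowest. The median of all genes moved alongside, from 8.98 to 9.34 in eugenol 2 and from 7.13 to 7.24 in muscone 3. The order of members was kept more closely within experiments than between them: Spearman's rho over the 167 genes had a median of 0.962 for 48 pairs of arrays of 1 experiment and of 0.872 for 448 pairs of different experiments. These correlations run across genes that share an array and a probe design, and they describe the arrays only.

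**Figure D2:**
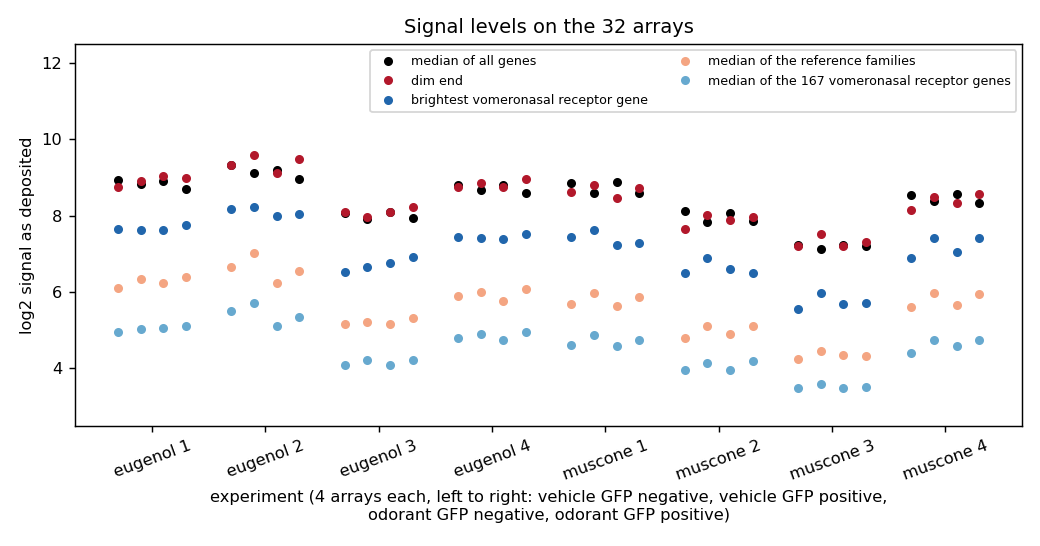
Log2 signal on each of the 32 arrays by experiment: the median of all genes, the dim end, the brightest vomeronasal receptor gene, the median of the reference families and the median of the 167 vomeronasal receptor genes. The order of the lower levels is kept on every array and all levels shift together between experiments, with muscone 3 the lowest.

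By group, the members' median averaged 4.84 ± 0.57 (SD, n = 4) in GFP negative and 4.97 ± 0.61 in GFP positive cells after vehicle in the eugenol experiments, and 4.75 ± 0.46 and 4.91 ± 0.48 after eugenol. In the muscone experiments it averaged 4.12 ± 0.51 and 4.34 ± 0.59 after vehicle and 4.16 ± 0.54 and 4.30 ± 0.58 after muscone. These group values overlap widely. Differences between them were therefore read within experiments, with the experiment as a block in limma.

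Comparing the sorted fractions asked how cells inside the reporter gate differed from those outside it. Under vehicle, 66 of the 167 members were higher in GFP positive cells and 1 was lower (limma, Benjamini-Hochberg adjusted p under 0.05), beside 45.1% of all genes higher and 21.9% lower. Both shares of members lay below these backgrounds in the deposited scale. The changes were small: the members' differences ran from -0.43 to 0.42 with a median of 0.17, and none reached a 2-fold change, 1 on the log2 scale. The reference families, which include no receptor, had a median of 0.19, and 58 of 111 were higher. The median of all genes was 0.14. V1R genes gave 46 higher and 0 lower of 118, and V2R genes 20 higher and 1 lower of 49.

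The shift was spread over the experiments. The members' median difference under vehicle was above 0 in 8 of 8 experiments, from 0.046 in eugenol 3 to 0.283 in muscone 4. It was below that of the reference families in 6 of 8. After eugenol, 30 members were higher and 0 lower, beside 28.3% and 18.3% of all genes, with a median of 0.17 for members and 0.21 for the reference families. After muscone, 24 were higher and 0 lower, beside 35.1% and 21.5% of all genes, with medians of 0.16 and 0.20. In these the members' median lay below the reference median in all 4 experiments of each odorant. Odorant and vehicle comparisons of fractions use different arrays of the same experiments.

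**Figure D3:**
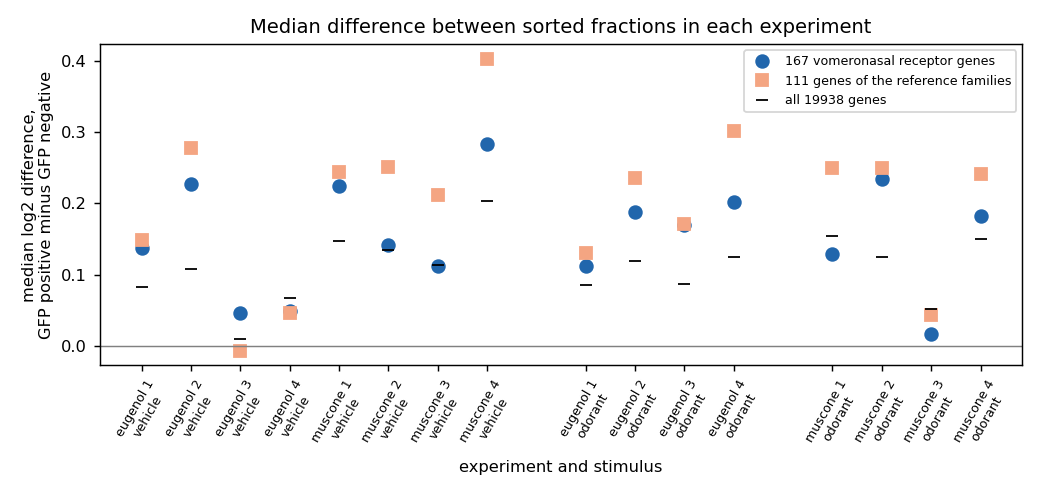
Median log2 difference, GFP positive minus GFP negative, in each experiment and stimulus, for the 167 vomeronasal receptor genes, the 111 genes of the reference families and all 19938 genes. The members' median is above 0 in all 16 comparisons of fractions and lies near or below that of the reference families in most.

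The calls of higher members depended on the zero of the scale, and most were lost with centring on the reference families. With each array centred on the median of the reference families, 1 member was higher and 19 lower under vehicle, beside 10.9% of all genes higher and 38.3% lower, and the median of all genes became -0.10. None of the 66 members called higher as deposited was called lower after centring, 1 was called higher both ways, Vmn2r1, and 1 was called lower both ways, Vmn2r74. With each array centred on the median of all probe sets, 131 were higher and 1 lower (58.6% and 18.4% of all genes). The members' share of higher genes then lay above that of all genes, opposite to the deposited scale. Quantile normalization gave 23 higher and 3 lower (42.6% and 22.2% of all genes). After eugenol, centring on the reference families gave 1 higher and 6 lower (6.41% and 29.5% of all genes), and after muscone 3 and 3 (16.2% and 26.9%). The members called higher under all of these scalings were Vmn2r1 under vehicle, Vmn1r21 after eugenol, and Vmn1r21, Vmn1r48 and Vmn1r85 after muscone.

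Vmn2r1, the V2R that accompanies other V2Rs in basal vomeronasal neurons, had the largest rise under vehicle. Its signal in GFP negative cells was 6.39, 6.96, 5.15 and 6.73 in eugenol 1 to 4 and 6.36, 4.68, 4.17 and 6.02 in muscone 1 to 4. In GFP positive cells it was 6.73, 7.48, 5.92 and 7.23, and then 6.66, 5.35, 4.19 and 6.25. The fractions overlapped between experiments, but the GFP positive array was the higher in each of the 8 experiments, by 0.026 to 0.774. The fitted difference was 0.42 (SE 0.083, adjusted p = 1.58e-04 in limma), or 1.34-fold. It was 0.37 after eugenol (SE 0.12, higher in 4 of 4, adjusted p = 0.0147) and 0.39 after muscone (SE 0.12, 4 of 4, adjusted p = 0.00735). Centred on the reference families, the difference under vehicle was 0.18 (SE 0.076, adjusted p = 0.0490 in limma), and after eugenol and muscone it was 0.12 and 0.22 with adjusted p = 0.420 and 0.107. The call after eugenol was lost without eugenol 2 or 3 (adjusted p = 0.0546 and 0.0631) and the call after muscone without muscone 4 (0.0702). Its mean signal of 6.01 averaged -2.43 relative to the dim end and was above the reference median on 25 of 32 arrays. Relative to the dim end, the GFP positive vehicle array was lower in muscone 3 (-3.34 beside -3.05) and muscone 4 (-2.23 beside -2.14). It was higher in the other experiments. After muscone it was lower in muscone 3 (-3.21 beside -3.19) and higher in the others, and after eugenol it was higher in each.

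Vmn2r74, a V2R gene between vomeronasal pseudogenes, was the only member called lower under vehicle and is singled out because its value was seen. In GFP negative cells it measured 5.54, 5.84, 5.17 and 5.53 in eugenol 1 to 4 and 6.02, 4.56, 4.27 and 5.71 in muscone 1 to 4. In GFP positive cells it measured 5.50, 5.98, 4.23 and 5.09, and then 5.06, 4.04, 4.08 and 5.18. Eugenol 2 was the experiment in which the GFP positive array was higher, and the other differences ran from -0.039 in eugenol 1 to -0.96 in muscone 1. Relative to the dim end it was lower in GFP positive cells in every experiment. The fitted difference was -0.43 (SE 0.10, lower in 7 of 8, adjusted p = 9.71e-04 in limma), and -0.67 when centred on the reference families. After eugenol it was -0.36 (lower in 4 of 4, adjusted p = 0.0507) and after muscone -0.20 (lower in 4 of 4, adjusted p = 0.252), which did not pass. Centred on the reference families, Vmn1r180 (-0.40), Vmn1r205 (-0.35), Vmn1r203 (-0.31) and Vmn2r27 (-0.27) followed it among the 19 lower members.

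**Figure D4:**
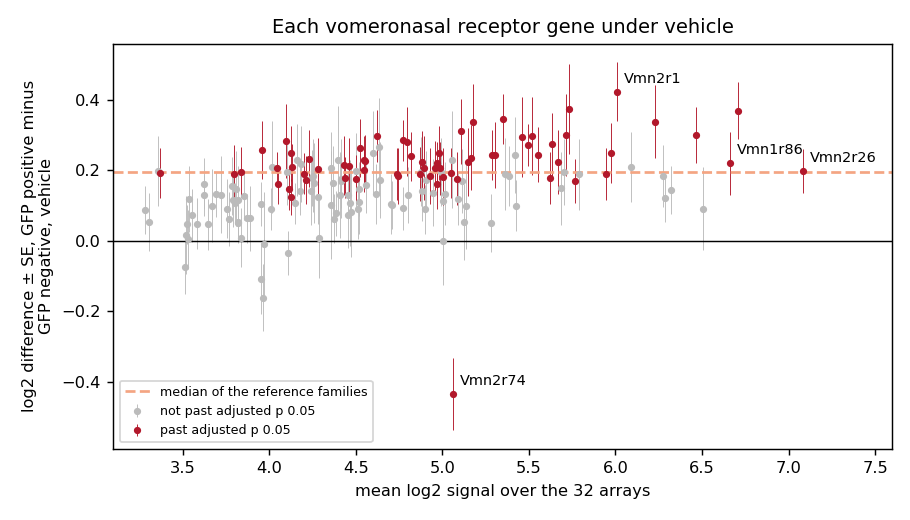
Log2 difference ± SE, GFP positive minus GFP negative under vehicle, against mean log2 signal for each of the 167 vomeronasal receptor genes, with the 67 genes past adjusted p 0.05 in red and the median of the reference families dashed. Most members lie between 0 and 0.4 around the reference median, and Vmn2r74 stands alone at -0.43.

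The other members with the largest rises and 1 sign in every experiment were of both families. Under vehicle 20 of the 66 had that sign in 8 of 8 experiments, out of 167 members, beside 25.9% of all genes. After Vmn2r1 the largest of them were Vmn2r93 (0.37, SE 0.13), Vmn1r70 (0.35, SE 0.070), Vmn1r85 (0.34, SE 0.11), Vmn1r80 (0.31), Vmn1r193 (0.30), Vmn1r185 (0.29), Vmn1r24 (0.28), Vmn1r208 (0.25) and Vmn1r65 (0.24). All 10 of these passed the threshold in limma. Vmn1r208 has a second probe set of its own, with a mean of 5.83 beside 5.97. After eugenol 29 members did so in 4 of 4 experiments, beside 27.8% of all genes, and the largest were Vmn1r21 (0.67), Vmn2r65 (0.40), Vmn1r230 (0.39), Vmn2r-ps54 (0.39), Vmn2r1, Vmn1r54 (0.36), Vmn1r67 (0.36), Vmn1r19 (0.35), Vmn1r78 (0.33) and Vmn1r216 (0.33). After muscone 16 did so in 4 of 4, beside 32.2% of all genes, and the largest were Vmn1r48 (0.65), Vmn1r21 (0.58), Vmn1r85 (0.50), Vmn2r1, Vmn2r110 (0.38), Vmn1r183 (0.37), Vmn1r82 (0.35), Vmn1r210 (0.33), Vmn1r198 (0.33) and Vmn2r54 (0.32). Several of these calls were lost when 1 experiment was left out, for Vmn1r19 and Vmn1r210 also with experiments of the other odorant. Under vehicle Vmn1r208 and Vmn2r93 lost theirs without muscone 4, and Vmn1r24 without muscone 1. After eugenol Vmn1r19 lost its call without eugenol 3, eugenol 4, muscone 1 or muscone 2, Vmn1r54 without eugenol 3, Vmn1r230 without eugenol 4 and Vmn1r216 without eugenol 2. After muscone Vmn1r183 lost its call without muscone 2 or 3, Vmn1r210 without muscone 2, muscone 4, eugenol 1 or eugenol 4, Vmn1r82 without muscone 2 and Vmn2r54 without muscone 1 or 3. The adjusted p-values of limma then ran from 0.0503 for Vmn1r216 to 0.282 for Vmn1r19.

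Across the 3 comparisons of fractions 86 members were higher in at least 1, beside 49% of all genes, and 7 in all 3, beside 23.8% of all genes. The 7 were Vmn2r1, Vmn2r65, Vmn2r-ps54, Vmn1r64, Vmn1r76, Vmn1r198 and Vmn1r216. Their differences ran from 0.17 for Vmn2r-ps54 under vehicle to 0.42 for Vmn2r1 under vehicle. Vmn2r-ps54 is annotated as a pseudogene by its name, and both of its probe sets hold identical values. Vmn2r65 has a second probe set of its own, with a mean of 4.46 beside 4.50.

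Vmn1r21, a V1R gene, had the largest difference of all members after eugenol. Its GFP negative signal was 6.08, 6.01, 4.59 and 5.96 in eugenol 1 to 4, and its GFP positive signal was 6.50, 6.71, 5.67 and 6.44. The GFP positive array was higher in each, by 0.43 to 1.08 (fit 0.67, SE 0.15, adjusted p = 0.00117 in limma), and by 0.43 (adjusted p = 0.0255) with centring on the reference families. After muscone the GFP negative signal was 4.92, 4.53, 3.25 and 5.46 and the GFP positive signal 5.27, 4.95, 3.87 and 6.40, higher in 4 of 4 (fit 0.58, adjusted p = 0.00269, or 0.41 and 0.0256 when centred). Under vehicle the difference was 0.24 (SE 0.11, higher in 6 of 8, adjusted p = 0.0527), which did not pass. The change of the difference with eugenol was 0.41 (SE 0.22, adjusted p = 0.9999) and with muscone 0.36 (SE 0.22, adjusted p = 0.985), so a change with the odorant was not shown.

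Vmn1r48 measured 4.78, 3.76, 3.34 and 4.90 in GFP negative and 5.37, 4.87, 3.76 and 5.41 in GFP positive cells after muscone, in muscone 1 to 4. The GFP positive array was higher in each (fit 0.65, SE 0.19, adjusted p = 0.00697 in limma, or 0.48 and 0.0351 when centred on the reference families). Without muscone 2, whose difference of 1.10 was the largest of the 4, the call was lost (0.50, adjusted p = 0.0753), as was that of Vmn1r85 after muscone (adjusted p = 0.0846). Under vehicle it was higher in 5 of 8 experiments (0.23, adjusted p = 0.142). Vmn2r83, a V2R known from the Grueneberg ganglion at the tip of the nose, had a mean of 5.79 and a difference of 0.19 under vehicle (SE 0.10, adjusted p = 0.106), which passed without eugenol 3 (adjusted p = 0.0261). A second probe set of Vmn2r83 had a lower mean of 4.42. Vmn2r26 was 0.20 higher in GFP positive cells under vehicle (SE 0.063, higher in 6 of 8, adjusted p = 0.00885), and -0.040 when centred on the reference families. Vmn2r54 was 0.37 higher (higher in 6 of 8, adjusted p = 4.92e-04) and Vmn1r86 0.22 higher (6 of 8, adjusted p = 0.0353), which was -0.019 when centred. The call of Vmn1r86 was lost without eugenol 2, eugenol 3, muscone 1 or muscone 3 (adjusted p = 0.101, 0.0680, 0.0671 and 0.0795 in limma).

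**Figure D5:**
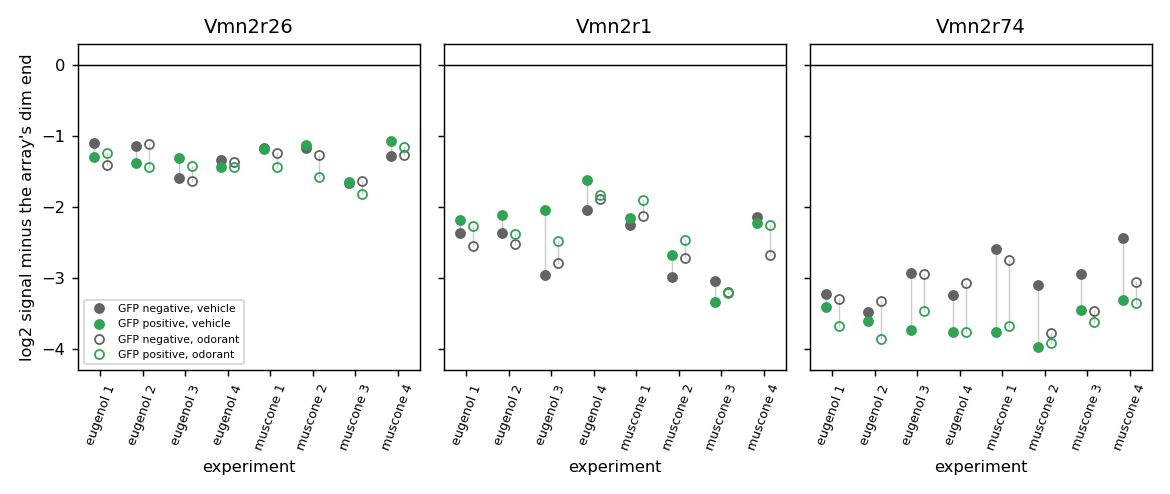
Log2 signal minus the array's dim end for Vmn2r26, Vmn2r1 and Vmn2r74 in the 8 experiments, with GFP negative cells in grey and GFP positive cells in green, vehicle filled and odorant open, and lines joining arrays of 1 experiment and stimulus. Vmn2r74 is lower in GFP positive cells in all pairs, relative to the dim end, and all 3 genes stay below the dim end throughout.

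No vomeronasal receptor gene passed the threshold for either odorant. In GFP positive cells eugenol against vehicle gave 0 of 167 members past the threshold, beside 0% of all genes, and muscone gave 0, beside 0.00502%, or 1 gene. In GFP negative cells both gave 0 members, beside 0% and 0%. The change of the fraction difference with eugenol (0% of all genes) and with muscone (0.00502%) gave 0 as well. At an unadjusted p under 0.05 in limma there were 14 members for eugenol and 9 for muscone in GFP positive cells, 7 and 4 in GFP negative cells, and 3 and 5 for the change of the difference. For eugenol these were 8.38% of members beside 4.63% of all genes in GFP positive cells, 4.19% beside 2.34% in GFP negative cells and 3 of 167 members beside 1.19% of all genes for the change of the difference. For muscone they were 5.39% beside 3.74%, 2.40% beside 8.55% and 2.99% beside 4.45% in the same order. Odorant effects and the changes of the difference share their vehicle arrays.

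The odorant estimates spread on both sides of 0. In GFP positive cells the members' differences ran from -0.35 for Vmn2r68 to 0.34 for Vmn1r48 with eugenol and from -0.53 for Vmn2r60 to 0.29 for Vmn1r225 with muscone, with a median SE of 0.12 for both. In GFP negative cells they ran from -0.36 to 0.28 with eugenol and from -0.44 to 0.27 with muscone. The lowest of these, -0.44, was Vmn2r74 after muscone (lower in 4 of 4 experiments, adjusted p = 0.405). Vmn2r26 was -0.31 with muscone in GFP positive cells (lower in 3 of 4, adjusted p = 0.9999), the smallest unadjusted p of the members there.

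The vehicle arrays of the eugenol and muscone experiments were also set against each other. The difference of fractions under vehicle, eugenol minus muscone experiments, passed in 0 members, beside 0% of all genes, with a smallest adjusted p of 0.203 among members. At an unadjusted p under 0.05 in limma there were 12 members, or 7.19%, beside 15.6% of all genes. Vmn1r75 (-0.51) and Vmn2r54 (-0.47) had the smallest unadjusted p-values there. Vmn2r26, the brightest member, came next and was picked with its values seen. Its vehicle difference was -0.046 to 0.144 in the eugenol experiments and 0.191 to 0.531 in the muscone experiments, which do not overlap, yet the contrast of -0.33 (SE 0.13) had an adjusted p of 0.228 in limma.

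Genes that work with vomeronasal receptors ranged from bright to dim and moved both ways. Of 24 names, 23 were measured as single genes, and Trpc2, the channel of vomeronasal transduction, shares its probe set with other symbols and is not analysed here. Above the dim end on all 32 arrays were 7, and 11 never were. Under vehicle the test called 8 of them higher and 7 lower in cells with GFP, beside the backgrounds above. Gnai2, the V1R-coupled subunit, fell by 2.61 and Plcb2, a phospholipase, by 2.74. Gng8, a G protein gamma subunit also made by immature olfactory neurons, fell by 2.22 and Itpr3, a calcium release channel, by 1.07. Gnao1, the V2R-coupled subunit, was 0.11 higher (adjusted p = 0.0264 in limma) and is given for its role. Ano2, a chloride channel also of olfactory cilia, was 0.79 higher. These genes are also made by other cells of the mucosa and blood. H2-M10.3, a nonclassical MHC gene of V2R neurons, was 0.67 higher with a mean signal of 6.56 and was never above the dim end.

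Cell type markers moved between the fractions alongside these values, and their part in the members' differences was not tested. Mature olfactory neuron markers were above the dim end on all 32 arrays in 13 of 13 cases and 13 were higher in GFP positive cells (median 0.57). Basal progenitor markers were lower in 6 of 6 (median -2.56), immune markers in 9 of 9 (-3.62), microvillous in 5 of 5 (-1.87) and erythroid in 2 of 2 (-3.34). The mean signal of the immune list was 10.53 to 11.86 in GFP negative and 7.30 to 8.59 in GFP positive vehicle cells of the eugenol experiments. The formyl peptide receptors, another vomeronasal family, had 4 genes measured, 0 above the dim end and 1 higher. Of all genes, 45.1% were higher and 21.9% lower under vehicle. In sorted pools, fewer cells of a type and less RNA per cell cannot be told apart.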

How the data were processed

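Sorted cells of the olfactory mucosa were measured on 32 Affymetrix arrays in 8 groups of 4. The authors deposited log2 intensities for 35556 probe sets, made in Affymetrix Expression Console per the submitters' processing notes. Its version, background correction and normalization were not named by any source used here, and the median of all probe sets ran from 6.72 to 8.81 over the arrays. The number of arrays, 32, limits the precision. Values were used as deposited, 1 probe set per gene with 1 symbol, the one with the highest mean. The 167 members all matched RefSeq of assembly GRCm38.p6 by gene ID.

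All 19938 genes were fitted with limma 3.58.1 in R 4.3.3, with a mean per group (8) and a fixed block per experiment, leaving 18 residual degrees of freedom and 21.7 with the prior. Tests were two-sided and adjusted by Benjamini-Hochberg over all genes, with a threshold of 0.05. The code was tested on simulated data. The block comes from the array titles, where 4 arrays share a label. It treats these 4 arrays alike and does not further pair the fractions of the same stimulus. In 48 pairs of arrays of 1 experiment the deviations from the group means correlated at 0.20 to 0.91.

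The members, gene lists and reference families were chosen with earlier results of these data known. Named were the 3 members nearest to the dim end, in each comparison up to 10 members per direction that passed and kept 1 sign throughout the experiments, and Vmn2r1 and Vmn2r83. Partner genes named were those with small p-values. Alternatives were no block, centring on all probe sets or on the reference families, quantile normalization, a filter on dim genes, array weights, a prior trend, the mean of probe sets, each experiment left out and other dim-end cuts (the 90th and 99th percentile, the reference families without Krtap and the median of all probe sets).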

Additional observations from a re-analysis of the deposited data

Results flagged for a closer look

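Of 248 series of 4 arrays checked, one for each named member (and the members' median) in each group, 7 held an array far from the other 3, by Dixon's criterion at the 95% level. Chance alone gives about 5% of such series. Vmn1r21 was 4.59 in GFP negative cells after eugenol in eugenol 3. Vmn1r230 and Vmn1r70 were both 4.82 in GFP positive cells after eugenol in eugenol 3. Vmn2r65 was 3.85 in GFP negative vehicle cells in eugenol 3. Vmn2r74 was 5.15 and Vmn2r93 was 5.37 in GFP negative cells after eugenol, also in eugenol 3. Vmn2r110 was 3.49 in GFP negative vehicle cells in muscone 3. All 7 were the lowest of their group, and they come from experiments whose arrays were low as a whole.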

How the results depend on the processing

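Counts of called members followed the scaling and the block. Under vehicle the 66 higher members became 0 without the replicate block, 131 with centring on all probe sets, 23 with quantile normalization and 1 with centring on the reference families. The 1 lower member became 0 without the block, 3 with quantile normalization, 19 with centring on the reference families and 2 with array weights. After eugenol the 30 higher became 0 without the block, 85 with centring on all probe sets, 6 with quantile normalization, 1 with centring on the reference families and 79 with array weights, and 1, 6 and 1 were lower with quantile normalization, centring on the reference families and array weights. After muscone the 24 higher became 0 without the block, 85, 13, 3 and 53 in the same order, and 3 were lower with centring on the reference families. Centring on all probe sets gave 47.3% and 51.1% of all genes higher after eugenol and muscone, and quantile normalization 30.8% and 35.8%. Without the block, 1.71%, 0.602% and 1.23% of all genes were higher in the 3 comparisons, and 0 members had an unadjusted p under 0.05 in limma in any of them, since differences between experiments then count as spread.

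Leaving out 1 experiment gave 35 to 71 higher and 1 to 2 lower members under vehicle (35 without muscone 4), 13 to 32 higher and 0 to 1 lower after eugenol (19 without eugenol 3, 13 without eugenol 4), and 11 to 48 higher and 0 to 1 lower after muscone (48 without eugenol 2, 11 without muscone 2, 14 without muscone 4). Of all genes 38.7% to 45.5%, 19.7% to 30.5% and 27.2% to 38.6% were then higher, and in each of these fits the members' share was the smaller. With array weights 48.9%, 45.0% and 42.5% of all genes were higher, beside 49.7%, 47.3% and 31.7% of members. The cause of these moves was not tested. Vmn2r26 and Vmn1r86 turned to -0.0404 and -0.0188 under vehicle with centring on the reference families. Of 35 differences of named members, 34 lost their call without the block, and the other, that of Vmn2r83, had not passed with it. The odorant comparisons gave 0 members under each of the alternatives run.

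Looser cuts were chosen after seeing the data. At the 75th percentile of the reference families 1 member lay above on all 32 arrays, beside 71.3% of all genes. At the lowest quartile of all probe sets it was also 1, beside 70.7%, and at the median of the reference families 8, beside 84.8%. On all 4 arrays of some group the counts were 4, 4 and 21 in that order, beside at least these same shares of all genes. A filter on genes above the dim end on at least 4 arrays left 0 members and so gave no value. Signals this close to the bottom of the scale limit what any difference can show.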

Other observations

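The brightest probe set of the vomeronasal families names 11 V2R genes at once and belongs to no member. Its mean signal was 8.63, and it lay above the dim end on 23 of 32 arrays, where no member did on any. It was higher in GFP positive than in GFP negative cells in 8 of 8 experiments under vehicle, by 0.24 to 0.95 (median 0.61), in 4 of 4 after eugenol, by 0.37 to 0.91, and in 4 of 4 after muscone, by 0.75 to 0.89. Relative to the dim end, the GFP positive vehicle array was lower in eugenol 2 (0.32 beside 0.36) and higher in the other pairs. Of 19938 genes, 5165 under vehicle, 5548 after eugenol and 6419 after muscone were called higher with 1 sign throughout. This probe set was picked for its level after values were seen, and which of the 11 genes, or what other transcript, gave the signal was not tested. Of the 66 shared probe sets 64 lay above the dim end on no array and 0 on all 32.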
